A study of Mus musculus with 6 samples.

Results

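The 10 genes described here are the Fc receptor and Fc receptor-like genes Fcer2a, Fcgr2b, Fcgr3, Fcgr4, Fcgr1, Fcer1g, Fcmr, Fcrl1, Fcrl5 and Fcrla, chosen by name from the 56413 gene symbols of a table of expected counts. All 10 were in the table and all 10 passed the filter on low counts. RNA came from fresh mouse spleen cells and was sequenced as ribosomal RNA-depleted total RNA. There were 3 libraries from Top3b-KO spleen cells, labelled as a knockout of the gene for topoisomerase III-beta (Top3b), and 3 from wild-type (WT) spleen cells. The labels give no strain, age or allele, and leave unsaid whether the libraries of a genotype stem from different mice. The p-values therefore speak to the spread among these 6 libraries, which may be technical. The study's interest is the part of Top3b in immune dysregulation and tumour formation.

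Fc receptors bind the constant part of antibodies and turn antibody that coats a target into a signal in the cell. Activating receptors for IgG signal through an associated chain that carries a tyrosine motif called ITAM, while the inhibitory receptor Fcgr2b carries its own motif, ITIM, which recruits phosphatases. In the spleen, follicular B cells carry the low-affinity IgE receptor Fcer2a (CD23) and the IgM receptor Fcmr, and macrophages, monocytes, neutrophils and natural killer cells carry different sets of the activating receptors. The Fc receptor-like proteins are relatives found mainly on B cells.

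The difference between the inhibitory and the activating arm can be read in the coding bases of the motifs. They are shown from the GENCODE M21 transcripts Fcgr2b-201 and Fcer1g-201, with the tyrosine codons in capitals, because the ratios described further on set activating against inhibitory genes.
Fcgr2b ITIM: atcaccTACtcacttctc
Fcer1g ITAM: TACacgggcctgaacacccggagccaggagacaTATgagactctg

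Fcgr2b and Fcgr3, both on chromosome 1, are close relatives in the part that binds IgG, which bears on how well reads can be told apart. Their longest coding transcripts aligned without a gap over 509 bases with 18 differences, an identity of 96.5%. The 150 bases of that alignment with the fewest differences are shown, with the differing base in capitals.
Fcgr2b: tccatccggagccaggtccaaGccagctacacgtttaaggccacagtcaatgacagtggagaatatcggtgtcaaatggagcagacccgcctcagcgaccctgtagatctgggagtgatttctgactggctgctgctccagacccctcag
Fcgr3: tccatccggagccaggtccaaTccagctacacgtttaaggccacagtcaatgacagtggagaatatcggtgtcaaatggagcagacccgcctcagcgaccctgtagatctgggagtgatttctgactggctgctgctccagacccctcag
Of the 1247 windows of 101 bases in the Fcgr3 transcript, 42 (3.37%) also occurred in Fcgr2b, and of the 1198 windows of 150 bases 0 did. In Fcgr2b, 229 of 3444 windows of 101 bases (6.65%) also occurred in transcripts of other genes, Fcgr3 among them. At 150 bases 107 of 3395 (3.15%) did, with Cplx2, Gm47409 and Rab3c and not with Fcgr3. In the other 8 genes 0 windows of either length were shared. The labels give both read lengths, and the sources used here do not say how reads with several matches were counted, so the values of Fcgr2b and Fcgr3, and the split between them, are less certain than the others.

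Total counts ranged from 9941014 to 25473404 in the Top3b-KO libraries and from 15262060 to 15860287 in the WT libraries, with the lowest total in Top3b-KO replicate 3. Top3b itself was at 51.5, 48.2 and 49.7 CPM (counts scaled to a common library size, with TMM factors) in Top3b-KO, against 95.1, 86.9 and 91.0 CPM in WT. The log2 fold change was -0.87 (SE 0.071; edgeR adjusted p = 5.78e-06). The knockout libraries kept Top3b counts, and a count per gene does not say which exons they came from. B and T cell markers were abundant in all libraries. The summed level of 9 B cell markers was 4512 to 4710 CPM in Top3b-KO and 4366 to 5051 CPM in WT, and that of 9 T cell markers 1636 to 1703 CPM in Top3b-KO and 1458 to 1703 CPM in WT. Of 9 pancreas and stroma markers 3 passed the filter on low counts. Pecam1 was at 255 CPM in Top3b-KO and 251 CPM in WT. The other markers that passed were low, Cela1 at 2.67 CPM in Top3b-KO and 3.07 CPM in WT, and Cdh5 at 1.82 CPM in Top3b-KO and 2.37 CPM in WT.

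No Fc receptor gene differed between genotypes beyond the spread between libraries. In the edgeR quasi-likelihood fit, with p-values adjusted by Benjamini-Hochberg over the 18716 genes tested, 0 of the 10 passed an adjusted p of 0.05, where 0.0107% of all genes did (0.00534% higher and 0.00534% lower in Top3b-KO). Their lowest adjusted p in edgeR was 0.92, for Fcgr4. At an unadjusted p under 0.05 there were also 0 of 10, against 5.52% of all genes (1.83% higher and 3.69% lower in Top3b-KO), and DESeq2, limma-voom and voomWithQualityWeights likewise gave 0 at either threshold. The groups overlapped in CPM for all 10 genes, while 11% of all tested genes had groups that did not overlap. The log2 fold changes ran from -0.17 to 0.19 with a median of -0.048, beside -0.0029 for all tested genes. 8 of the 10 lay below 0, against 50.9% of all genes. The direction turned on a single library for Fcer2a, Fcgr3, Fcmr, Fcrl1 and Fcrl5, whose values without each library are given with the processing results.

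The fit limits how large a difference could be, but only against the spread among these libraries, which may be technical. The 95% interval of the fold change lay within 1.5-fold either way for all 10 genes, and within 1.2-fold either way for 7 of them. Fcgr4, Fcgr1 and Fcer1g were the 3 with wider intervals, and Fcgr4 and Fcgr1 were also the genes with the fewest reads, 87 to 217 and 91 to 179 counts per library.

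**Figure D1:**
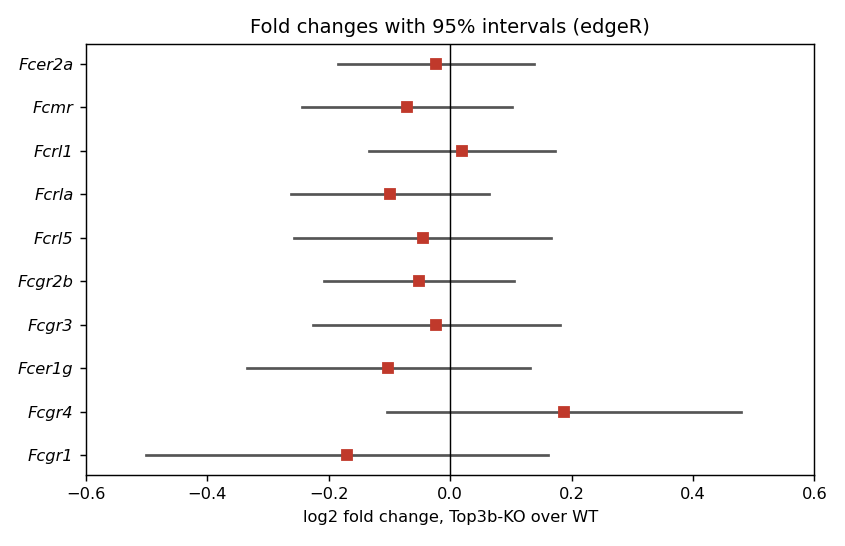
Log2 fold change of each Fc receptor gene, Top3b-KO over WT (squares), with 95% intervals from edgeR (lines) and a vertical line at 0. Every interval crosses 0, and the widest are those of Fcgr1 (-0.50 to 0.16) and Fcgr4 (-0.10 to 0.48).

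Fcer2a, the low-affinity IgE receptor that dampens IgE production and carries IgE complexes, was at 292, 310 and 341 CPM in Top3b-KO and at 288, 346 and 323 CPM in WT. The lowest and the highest library were both WT, so the knockout values lay inside the WT range. Its log2 fold change was -0.024 (SE 0.077), with an interval of -0.19 to 0.14.

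Fcmr, which binds IgM, was at 258, 259 and 284 CPM in Top3b-KO and at 240, 309 and 292 CPM in WT. Here too the Top3b-KO libraries lay between WT replicate 1, the lowest, and WT replicate 2, the highest. The log2 fold change was -0.071 (SE 0.082), with an interval of -0.24 to 0.10. Without WT replicate 1 it was -0.17 with an unadjusted p of 0.023 in edgeR, and the adjusted p was 0.89.

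Fcrl1, a B cell receptor-like protein with activating motifs, was at 110, 113 and 117 CPM in Top3b-KO and at 99.8, 117 and 118 CPM in WT. Fcrla, a relative that stays inside the B cell and binds immunoglobulin there, was at 83.5, 88.4 and 90.5 CPM in Top3b-KO and at 82.7, 97.3 and 101 CPM in WT. Both genes had their lowest value in WT replicate 1 and their highest in WT replicate 3. The log2 fold change was 0.019 (SE 0.073) for Fcrl1. For Fcrla it was -0.099 (SE 0.078), and -0.18 without WT replicate 1, where the unadjusted p was 0.019 and the adjusted p 0.89 in edgeR. Without WT replicate 3 the log2 fold change of Fcrla was -0.044.

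Fcrl5, a receptor-like protein of marginal zone and B1 B cells, was at 22.1, 24.2 and 22.7 CPM in Top3b-KO and at 23.6, 26.5 and 21.1 CPM in WT. WT held both the lowest and the highest library, and the log2 fold change was -0.046 (SE 0.10). Fcgr2b, the inhibitory IgG receptor of B cells and of many myeloid cells, was at 54.4, 56.1 and 59.1 CPM in Top3b-KO and at 54.8, 60.0 and 60.4 CPM in WT. It was the steadiest of the 10 genes, with a highest library 1.11 times the lowest, and its log2 fold change was -0.051 (SE 0.075).

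**Figure D2:**
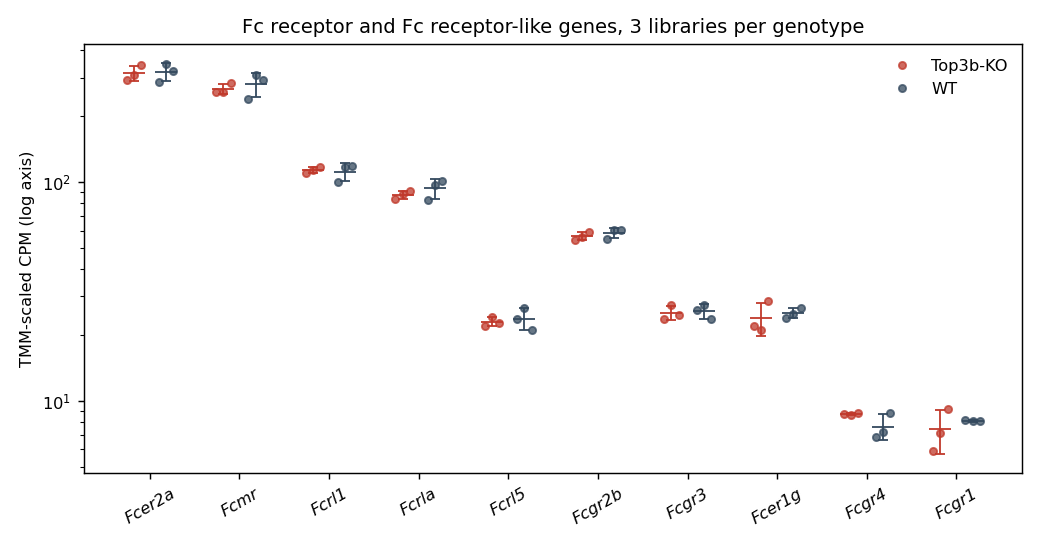
TMM-scaled CPM on a log axis for the 10 Fc receptor genes, with Top3b-KO libraries in red and WT libraries in dark blue. Points are libraries and the bars are the mean ± SD of 3 libraries per genotype, and the points of both genotypes overlap for every gene.

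Among the activating IgG receptors, Fcgr3, the low-affinity receptor of myeloid and natural killer cells, was at 23.6, 27.4 and 24.8 CPM in Top3b-KO and at 26.1, 27.5 and 23.6 CPM in WT. The groups covered the same range, with a log2 fold change of -0.023 (SE 0.097). Fcer1g, the ITAM-bearing chain that Fcgr1, Fcgr3 and Fcgr4 need at the surface, was at 22.0, 21.0 and 28.6 CPM in Top3b-KO and at 23.9, 25.0 and 26.6 CPM in WT. Top3b-KO replicate 3 was the highest library and the other Top3b-KO libraries were the lowest. The log2 fold change was -0.10 (SE 0.11), and -0.23 without Top3b-KO replicate 3, with an unadjusted p of 0.043 and an adjusted p of 1.00 in edgeR. Without Top3b-KO replicate 2 the log2 fold change of Fcer1g was -0.0097.

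Fcgr1, the high-affinity IgG receptor (CD64) of macrophages and monocytes, was at 5.90, 7.09 and 9.21 CPM in Top3b-KO and at 8.14, 8.06 and 8.04 CPM in WT. The Top3b-KO libraries lay on both sides of the WT libraries, which were nearly alike. Its log2 fold change was -0.17 (SE 0.16), -0.31 when Top3b-KO replicate 3 was left out and -0.016 when Top3b-KO replicate 1 was. Fcgr4, a receptor for IgG2a and IgG2b on monocytes, macrophages and neutrophils, showed the reverse pattern of spread, with 8.68, 8.59 and 8.80 CPM in Top3b-KO and 6.84, 7.21 and 8.80 CPM in WT. WT replicate 3 reached the knockout values and the other WT libraries lay below them. The log2 fold change was 0.19 (SE 0.14), with a 95% interval of -0.10 to 0.48 (edgeR adjusted p = 0.92), and it was 0.11 without WT replicate 1 and 0.30 without WT replicate 3. With 91 to 179 counts per library for Fcgr1 and 87 to 217 for Fcgr4, counting error makes these spreads imprecise. The contrast in spread between genotypes was not tested.

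Levels can be set against each other between genes only per transcript length. By CPM per kilobase of the longest coding transcript in GENCODE M21, Fcmr was at 167 ± 9.22 in Top3b-KO and 175 ± 22.5 in WT (SD, n = 3 each). Fcer2a followed at 140 ± 11.2 in Top3b-KO and 142 ± 13.1 in WT. These top genes overlapped each other over the 6 libraries. Fcrl1 (57.2 in Top3b-KO, 56.4 in WT) and Fcrla (52.1 in Top3b-KO, 55.8 in WT) came next and overlapped each other, and Fcer1g (34.9 in Top3b-KO, 36.9 in WT) stood apart from its neighbours in that order. Below it came Fcgr3 at 18.8 in Top3b-KO and 19.1 in WT, Fcgr2b at 15.9 in Top3b-KO and 16.5 in WT, and Fcrl5 at 8.75 in Top3b-KO and 9.04 in WT. The lowest levels per kilobase were those of Fcgr4, 6.92 in Top3b-KO and 6.06 in WT, and of Fcgr1, 2.86 in Top3b-KO and 3.12 in WT. At this length, neighbours from Fcer1g downward did not overlap. The place of most genes depended on the length used. With all exons merged, Fcrla stood above Fcrl1, and Fcrl1 (31.6 as the mean over all 6 libraries) and Fcer1g (28.1) overlapped over libraries. With the shortest coding transcript of each gene, Fcer2a (358) stood highest, followed by Fcrla (178) and Fcmr (171). Fcgr2b (53.0) and Fcgr3 (46.6) then both stood above Fcer1g (36.4).

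Pairs of genes were compared as the ratio of CPM within each library. The scaling of libraries cancels in it, though low counts still make a ratio less precise. Spleen cells are a mixture, and the genes of a pair can come from different cell types. A ratio is therefore no measure of signalling balance within a cell. Per 1 count of Fcgr2b there were 0.434, 0.489 and 0.420 counts of Fcgr3 in Top3b-KO and 0.476, 0.459 and 0.390 in WT. The genotypes overlapped, with a log2 difference of 0.022 (SE 0.11) and an exact permutation p of 0.9. Fcgr1 to Fcgr2b was 0.109, 0.126 and 0.156 in Top3b-KO and 0.149, 0.134 and 0.133 in WT, again overlapping (exact permutation p = 0.5).

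The Fcgr4 to Fcgr2b ratio was 0.160, 0.153 and 0.149 in Top3b-KO and 0.125, 0.120 and 0.146 in WT. It was the only ratio of the 5 computed whose genotypes did not overlap, by a narrow margin between Top3b-KO replicate 3 and WT replicate 3. The log2 difference was 0.25 (SE 0.089). With single libraries left out it was 0.19 to 0.33, where the lack of overlap already fixed the positive sign of the difference. Its two-sided exact permutation p was 0.1, the smallest that 3 against 3 libraries can give, and 0.5 after Benjamini-Hochberg adjustment over the 5 ratios, so it did not pass.

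Fcer1g per Fcgr3 was 0.931, 0.765 and 1.16 in Top3b-KO and 0.916, 0.910 and 1.13 in WT. It varied more within each genotype than between them (exact permutation p = 1). Fcer2a to Fcrl5, a follicular against a marginal zone gene, was 13.2, 12.8 and 15.1 in Top3b-KO and 12.2, 13.1 and 15.3 in WT. The log2 difference was 0.022 (SE 0.12, exact permutation p = 0.9). Of 9 marginal zone and B1 B cell markers, 0 passed in edgeR. At an unadjusted p under 0.05 there were 3, all lower in Top3b-KO, where 3.69% of all tested genes were lower.

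**Figure D3:**
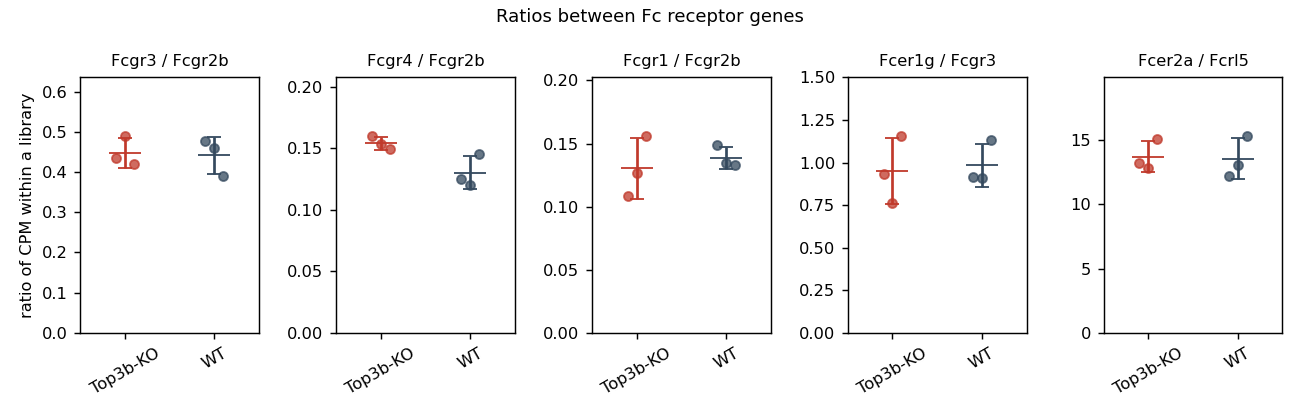
Ratios of CPM between pairs of Fc receptor genes within each library, on axes that start at 0, for Top3b-KO (red, left) and WT (dark blue, right). Points are libraries and bars are the mean ± SD of 3 libraries; only Fcgr4 to Fcgr2b has no overlap, with 0.149 as the lowest Top3b-KO value and 0.146 as the highest WT value.

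Across libraries, 5 of the 6 B-lineage genes varied less relative to the B cell markers than in CPM. The share of all tested genes that vary less in this way was not computed. WT replicate 1 held the lowest level of Fcer2a, Fcmr, Fcrl1, Fcrla and, outside the B-lineage genes, Fcgr4, and also the lowest sum of the 9 B cell markers, 4366 CPM, beside 4996 to 5051 CPM in the other WT libraries. In such mixed tissue, fewer cells of a type and less RNA per cell cannot be told apart. Divided by the marker sum of the same library, the SD of log2 values over the 6 libraries was 0.063 for Fcer2a, where it was 0.11 before. For Fcmr it was 0.058 after and 0.14 before, for Fcrla 0.041 and 0.12, for Fcrl1 0.050 and 0.092, and for Fcgr2b 0.032 and 0.068. Fcrl5 did not narrow, with 0.13 after and 0.11 before.

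Relative to these markers, the log2 difference between Top3b-KO and WT was 0.040 for Fcer2a, -0.0018 for Fcmr, -0.032 for Fcrla, 0.014 for Fcgr2b and 0.019 for Fcrl5, all with overlapping genotypes. Fcrl1 was the exception, though its own log2 fold change was 0.019 with overlapping genotypes. All 9 B cell markers of the sum had log2 fold changes below 0, with a median of -0.072, against 50.9% of all tested genes below 0. The log2 ratio of Fcrl1 to the marker sum was -5.36, -5.34 and -5.33 in Top3b-KO and -5.45, -5.43 and -5.40 in WT, a difference of 0.086 without overlap. The share of all tested genes without overlap relative to this sum was not computed. In CPM it was 11%. The 6 genes were singled out with the values known, so this is a description with no test.

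**Figure D4:**
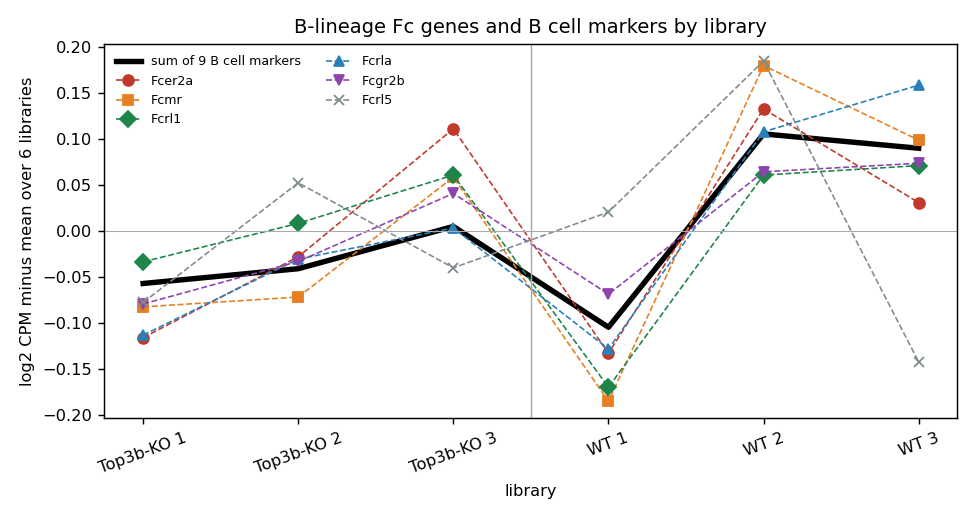
Log2 CPM minus its mean over the 6 libraries, for 6 B-lineage Fc receptor genes (dashed lines) and for the sum of 9 B cell markers (thick black line), with Top3b-KO libraries left and WT libraries right of the grey line. The marker sum is lowest in WT 1 (4366 CPM) and highest in WT 2 (5051 CPM), and relative to it the SD of log2 values is 0.032 to 0.063 for every gene except Fcrl5, where it is 0.13; the lines join separate libraries only to guide the eye.

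Fcgr1, Fcer1g and, by a narrow margin over WT replicate 3, Fcgr4 were highest in Top3b-KO replicate 3, the library with the highest sum of monocyte markers (1021 CPM, beside 781 to 928 CPM in the others) and of neutrophil markers (1693 CPM, beside 590 to 1256 CPM). Over all 8 monocyte markers, the sum was 781 to 1021 CPM in Top3b-KO and 850 to 928 CPM in WT. Lyz2 was the largest part of it, at 289, 421 and 516 CPM in Top3b-KO and 362, 426 and 420 CPM in WT. Csf1r, the next most abundant, averaged 167 CPM in Top3b-KO and 170 CPM in WT. The sum was not taken without Lyz2. Over 10 red pulp macrophage markers the sum was 487 to 569 CPM in Top3b-KO and 550 to 621 CPM in WT, and it was lowest in Top3b-KO replicate 3. Divided by the monocyte sum, the SD of log2 values over the 6 libraries was 0.12 for Fcgr1, where it was 0.22 before. For Fcer1g it was 0.11 after and 0.17 before. Fcgr3 and Fcgr4 did not narrow, with 0.15 and 0.19 after against 0.10 and 0.16 before. Against the other marker sums all 4 genes widened. Divided by the red pulp macrophage sum, the SD was 0.28 for Fcgr1, 0.24 for Fcer1g, 0.15 for Fcgr3 and 0.25 for Fcgr4, and divided by the neutrophil sum it was 0.36 for Fcgr1, 0.42 for Fcer1g, 0.52 for Fcgr3 and 0.56 for Fcgr4. The part of cell makeup in these values was not tested.

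The genes whose profile over the 6 libraries lay nearest to each receptor were found among 12957 genes whose mean reached 1 CPM, by the root mean square difference of centred log2 CPM. For Fcer2a these were Lgals3bp (0.011), Cd79b (0.026) and Ephx1 (0.026). For Fcmr they were Cd79a (0.021), H2-T24 (0.028) and Lynx1 (0.029). Cd79a and Cd79b are both among the B cell markers, none of which was among the nearest genes of Fcrla, Fcrl1, Fcgr2b or Fcrl5. With 6 libraries and so many genes, near profiles can arise by chance, which was not tested. Fcrla lay nearest to Atosa, Chst15 and Ly86 (0.023 to 0.029), Fcrl1 to Foxp1, D6Wsu163e and Hemk1 (0.015 to 0.016), and Fcgr2b to Fh1, Sp140 and Slc9a7 (0.012 to 0.022). Fcgr4 lay nearest to Gpr174, Seh1l and Tfb2m (0.028 to 0.031), Fcgr3 to Ndufs8, Rps7 and Ndufaf7 (0.022 to 0.028), Fcrl5 to Timp2, Chrnb1 and Cptp (0.032 to 0.035) and Fcer1g to Smim35, Dhx58 and Zbtb42 (0.028 to 0.041). Fcgr1 lay nearest to Mfsd13a (0.047), Pitpnm2os1 (0.073) and Pigz (0.082). The differences are not scaled to the spread of a gene. That spread was widest for Fcgr1 among the Fc receptor genes, with an SD of log2 CPM of 0.22. Its larger differences therefore do not show a lack of similar profiles.

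Other genes of the same families and pathways were read from lists. Of 10 other Fc-binding and receptor-like genes, 9 were in the table, 7 were tested and 0 passed in either direction by edgeR, nor did any reach an unadjusted p under 0.05. Their median log2 fold change was -0.059, beside -0.0029 for all tested genes. Trim21, the cytosolic antibody receptor, was at 84.1 ± 2.32 CPM in Top3b-KO and 87.6 ± 3.11 CPM in WT (SD, n = 3 each). Fcgrt, the neonatal Fc receptor that rescues IgG from breakdown, was at 33.6 ± 2.84 CPM in Top3b-KO and 34.9 ± 2.12 CPM in WT. Fcrlb, an intracellular relative of Fcrla, had the largest log2 fold change of the list at -0.30 (SE 0.25), from levels of only 1.60 CPM in Top3b-KO and 2.02 CPM in WT.

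Signalling below the receptors was likewise without a called gene. Of 12 genes of inhibitory signalling 0 passed by edgeR, with 1 at an unadjusted p under 0.05, beside 5.52% of all tested genes, and a median log2 fold change of -0.066. That gene was Dok3, an adaptor that restrains immunoreceptor signals, at 169 ± 4.87 CPM in Top3b-KO and 202 ± 13.7 CPM in WT (SD, n = 3 each), its log2 fold change being -0.26 (SE 0.067; edgeR adjusted p = 0.53). Csk, a kinase that restrains Src family kinases, had a log2 fold change of -0.088, and Cbl, a ubiquitin ligase, of 0.063.

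Of 21 genes of activating signalling 0 passed by edgeR and 1 had an unadjusted p under 0.05, beside the same 5.52% of all tested genes, with a median of -0.031. This was Blk, a B cell Src family kinase, at 173 ± 4.61 CPM in Top3b-KO and 196 ± 18.7 CPM in WT, its log2 fold change being -0.18 (edgeR adjusted p = 0.84). Syk, the kinase that docks on ITAM motifs, and Pik3cd, a lipid kinase subunit, had log2 fold changes of -0.057 and -0.044.

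Among 9 other receptors that pair with the Fcer1g chain or were listed with it, 7 were tested, 0 passed, beside 0.0107% of all tested genes, and 1 had an unadjusted p under 0.05 in edgeR, beside 5.52%. This was Klrb1c, the natural killer cell receptor NK1.1, at 19.5 ± 0.357 CPM in Top3b-KO and 23.7 ± 3.23 CPM in WT, its log2 fold change being -0.28 (edgeR adjusted p = 0.83). Ncr1 (NKp46), another natural killer cell receptor, had a log2 fold change of -0.053. The 7 genes listed with Fcer2a had a median of -0.00054, with 0 called and 0 at an unadjusted p under 0.05 by edgeR. In that list were Cr2 (CD21), with a log2 fold change of 0.011, and Adam10, the protease that sheds CD23, with 0.093.

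**Figure D5:**
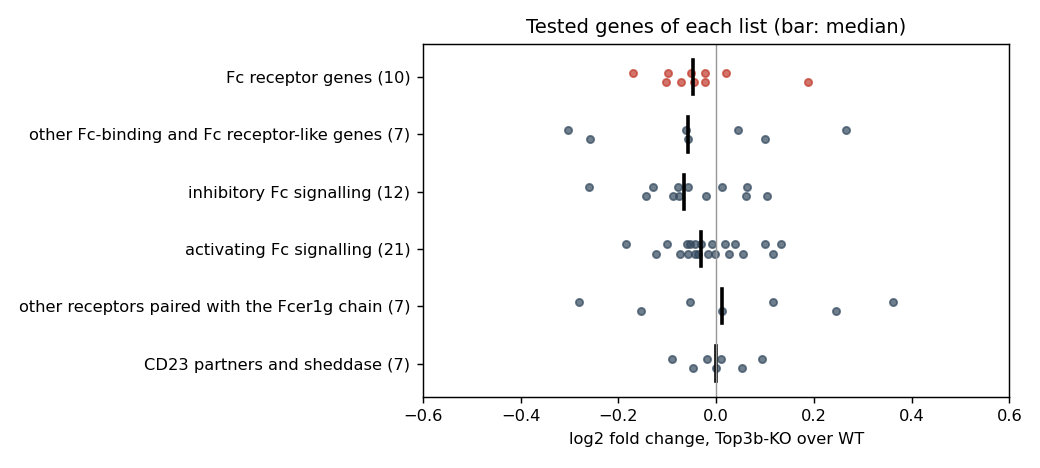
Log2 fold changes, Top3b-KO over WT, of every tested gene in the set of 10 Fc receptor genes (red) and in 5 related lists (dark blue), with the number tested in brackets and a bar at each median. The medians lie between -0.066 and 0.012, and no gene in these lists passed the adjusted threshold.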

How the data were processed

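The authors deposited 1 table of expected counts, with gene symbols in rows and 1 column for each library, all of them used. STAR and mm39 are named in the submitters' processing notes. The counting tool and its strand setting are not stated in the sources used here. The labels' protocols describe both a NEBNext and a TruSeq stranded kit, with no statement of which made these libraries. Values not whole within 1e-06 occurred for 72 symbols, 0 of them Fc receptor genes, and all were rounded. Library pairs differed by more than sampling noise (chi-square per degree of freedom 3.65 to 9.67). A floor of 3 counts equals 0.119 to 0.303 CPM, for counting error only. Genes kept by filterByExpr were tested with edgeR 4.0.16 (TMM, quasi-likelihood, robust, genotype only, two-sided, Benjamini-Hochberg, threshold 0.05) in R 4.3.3, after the test was tried on simulated counts. DESeq2 1.42.0 and limma 3.58.1 were alternatives. Transcript lengths, chromosomes and sequences came from GENCODE M21, whose build is not mm39, so no positions are printed. Members and lists were chosen with earlier results of these data known. Named genes were all members, Top3b, per list those past the threshold or otherwise the 2 most abundant and the 1 with the largest change among genes whose mean reached 1 CPM, and the 3 nearest profiles per member, without predicted genes. A gene that this rule also names is not reported here. The R-loop assay was not analysed here.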

Additional observations from a re-analysis of the deposited data

How the results depend on the processing

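Under all 16 alternatives of scaling, filter, test, replicate block and left-out library, 0 of the 10 Fc receptor genes passed. Over all genes, beside 2 calls, DESeq2 made 6, the replicate block 41 and testing without any filter 44, with 1 each from limma-voom, voomWithQualityWeights and robust=FALSE. Leaving out a library gave 1 to 32 calls over all genes: 32 when WT replicate 3 was left out, 9 for Top3b-KO replicate 1, and 1 each for Top3b-KO replicate 2 and for either other WT library. Over the left-out libraries the log2 fold change ran from -0.095 to 0.039 for Fcer2a, -0.087 to 0.038 for Fcgr3, -0.17 to 0.0040 for Fcmr, -0.058 to 0.059 for Fcrl1 and -0.12 to 0.040 for Fcrl5, each changing sign; the other 5 kept theirs under every alternative. The log2 difference of the ratio ran from -0.066 to 0.079 for Fcgr3 to Fcgr2b, -0.24 to 0.019 for Fcgr1 to Fcgr2b, -0.22 to 0.081 for Fcer1g to Fcgr3 and -0.050 to 0.11 for Fcer2a to Fcrl5. The causes were not tested. Libraries of the same number had deviations from their group means that correlated at 0.156, -0.0067 and 0.0093. The value of 0.156, for replicate 1, was the highest of any Top3b-KO and WT pair, beside 0.0781 for the next. With 3 libraries per genotype these values cannot decide whether the numbers pair the libraries. The replicate block changed no call among the 10 genes, and same-numbered differences of Fcgr4 to Fcgr2b averaged 0.25 with an exact sign-flip p of 0.25, the smallest it can give. Depth limits mainly Fcgr4 and Fcgr1 in Top3b-KO replicate 3, where they had 87 and 91 counts.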
